A study of Mus musculus with 14 samples.

Results

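The protocadherin genes were examined in RNA sequencing of mouse embryonic stem cells held in culture media that keep them in different states of pluripotency. Members were all protein-coding genes with a mouse symbol that begins with Pcdh. The GENCODE vM21 annotation lists 69 of them, and 36 had an identifier among the 37991 genes of the deposited files. The 36 were 12 non-clustered genes, 22 Pcdhb genes, 1 row of the Pcdha cluster (ENSMUSG00000007440) and 1 row of the Pcdhg cluster (ENSMUSG00000023036). The 33 others, 13 Pcdha and 20 Pcdhg genes, had no identifier of their own in the files. The files list 10 transcripts under each of the Pcdha and Pcdhg identifiers, and which isoforms those are is not given, so each is called a row here.

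Protocadherins are the largest group of the cadherin superfamily, transmembrane proteins whose extracellular cadherin repeats bind the same protein on a neighbouring cell. The clustered genes lie in tandem on mouse chromosome 18, where 26 of the 36 members were annotated. Neurons express different sets of them, and in that tissue they are known for giving neurites of the same cell a shared surface identity. Most non-clustered genes are known from the nervous system, and some, such as Pcdh8, also from the early mesoderm.

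The cells were C57BL/6 embryonic stem cells with an mCherry reporter of mir-290 and an eGFP reporter of mir-302. In experiment B, cells plated sparsely spent 5 days in 1 of 5 media, with 2 libraries per medium. F/A was the serum-free base N2B27 with 20 ng/ml of activin A and 12 ng/ml of bFGF. L-Pro/LIF added L-proline at a dose not given in the labels, 2i/LIF added 2i inhibitors (the protocol places them in FBS/LIF, the titles name LIF), and VitC/LIF added vitamin C at 500 µM. FBS/LIF was serum with LIF, the cytokine of ES cell self-renewal. The titles of L-Pro/LIF, VitC/LIF and FBS/LIF name LIF, and that of F/A does not. F/A thus differed from FBS/LIF in serum and, by the titles, in LIF, as well as in the added factors. Their parts cannot be told apart. Between F/A and L-Pro/LIF, LIF, L-proline and the added factors likewise changed together. Experiment A had 1 library each, from cells positive for both reporters: cells treated with L-proline at 1 mM for 5 days (L-Pro d5), cells given bFGF and 20 ng/ml activin A for 3 or 5 days (F/A d3, F/A d5), and the Untreated t0 cells they were set against, whose serum medium held LIF and 100 µM vitamin C. The labels do not say that libraries with different replicate numbers came from separate cultures, so p-values measure only the spread between these libraries. In bulk RNA, fewer cells expressing a gene and less RNA per cell cannot be told apart.

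Experiment B libraries held 17778399 to 26354444 mapped fragments, except F/A replicate 1 with 6937945. Experiment A libraries held 33162689 to 39711061 counts. In CPM, F/A replicate 1 exceeded F/A replicate 2 for 11 of the 14 members tested, with ratios from 0.725 to 2.5 over the 14. The share over all genes was not computed, so the count is not read as a trait of the members. Some F/A results below are also given without F/A replicate 1, and others, such as those of Pcdh8 and Cdh1, are not. Summed CPM (counts scaled to library size) of 8 naive ES cell markers was 14.1 to 21.9 in F/A, 94.7 to 107 in L-Pro/LIF and 2130 to 2166 in 2i/LIF, against 974 to 1008 in FBS/LIF, and that of 5 primed epiblast markers was 882 to 1055, 1135 to 1178 and 130 to 141, against 712 in both FBS/LIF libraries. Over 14 primitive streak and paraxial mesoderm genes it was 462 to 479 in F/A, 103 to 114 in L-Pro/LIF and 26.9 to 28.3 in 2i/LIF, against 73.6 to 78.9 in FBS/LIF. Over 11 measured neural genes it was 505 to 659, 467 to 494 and 173 to 183, against 316 to 327. Over 10 fibroblast genes it was 17.1 to 25.1, 20.8 to 21.0 and 10.0 to 12.8, against 4.31 to 6.98. Single genes did not all follow these sums. Among 12 streak and mesoderm genes tested, 8 rose and 1 fell in F/A over FBS/LIF. In L-Pro/LIF 4 of them rose and 2 fell, with a median log2 fold change of 0.03, against 0.01 over all genes. In 2i/LIF 2 rose and 4 fell. Of 10 neural genes tested, 4 rose and 3 fell in F/A over FBS/LIF, and 1 rose and 1 fell in L-Pro/LIF. In 2i/LIF 0 rose and 8 fell. Of 8 fibroblast genes tested, 6 rose and 0 fell in F/A and in L-Pro/LIF, and 1 rose and 3 fell in 2i/LIF. Over all genes tested, 24.4% rose and 22% fell in F/A, 13.7% and 10.3% in L-Pro/LIF, and 12.5% and 17.9% in 2i/LIF. Between F/A and FBS/LIF, 5 of 8 primitive endoderm genes tested rose and 1 fell, 2 of 6 trophoblast genes rose and 2 fell, 1 of 4 endothelial genes rose and 1 fell, and 1 of 4 general pluripotency genes rose and 3 fell. The part of these cell type genes in the protocadherin results was not tested.

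RefSeq promoter windows (GRCm38.p6, 250 bases before the start of the gene and 50 from it) were examined for 9 non-clustered members in 10 windows. Pcdh1, Pcdh11x, Pcdh12 and the clustered genes were not among them, so the member windows below say nothing of their promoters. The windows of 4 genes whose levels set the media apart are printed, 5′ to 3′ on the gene's own strand, with each CpG in capitals, to show how differently their CpG is spread.
Pcdh7 (chr5:57717831-57718130, plus strand): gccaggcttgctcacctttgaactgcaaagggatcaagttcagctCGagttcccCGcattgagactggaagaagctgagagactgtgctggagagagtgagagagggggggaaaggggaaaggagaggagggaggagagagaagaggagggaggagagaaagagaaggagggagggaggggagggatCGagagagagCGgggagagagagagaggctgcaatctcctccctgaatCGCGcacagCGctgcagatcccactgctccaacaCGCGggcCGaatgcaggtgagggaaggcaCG
Pcdh18 (chr3:49757267-49757566, minus strand): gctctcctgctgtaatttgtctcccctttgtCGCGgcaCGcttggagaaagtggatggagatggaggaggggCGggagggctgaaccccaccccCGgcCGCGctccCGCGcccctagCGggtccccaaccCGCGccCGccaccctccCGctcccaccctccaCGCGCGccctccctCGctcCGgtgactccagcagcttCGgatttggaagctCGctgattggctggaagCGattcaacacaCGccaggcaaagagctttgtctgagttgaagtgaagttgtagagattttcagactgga
Pcdh8 (chr14:79771263-79771562, minus strand): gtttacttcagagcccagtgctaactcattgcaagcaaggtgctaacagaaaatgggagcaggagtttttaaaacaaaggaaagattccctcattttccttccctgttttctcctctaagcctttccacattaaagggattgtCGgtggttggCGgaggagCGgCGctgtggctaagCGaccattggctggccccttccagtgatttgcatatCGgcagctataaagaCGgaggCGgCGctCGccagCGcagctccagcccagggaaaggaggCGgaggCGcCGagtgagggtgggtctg
Pcdh19 (chrX:133688944-133689243, minus strand): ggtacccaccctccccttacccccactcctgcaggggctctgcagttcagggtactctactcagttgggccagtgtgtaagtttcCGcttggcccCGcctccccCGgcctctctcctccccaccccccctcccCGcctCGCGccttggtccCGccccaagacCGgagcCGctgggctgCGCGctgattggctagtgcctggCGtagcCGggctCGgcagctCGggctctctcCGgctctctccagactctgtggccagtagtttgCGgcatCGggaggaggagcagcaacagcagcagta
These windows held 11 CpG for Pcdh7, 23 for Pcdh18, 14 for Pcdh8 and 18 for Pcdh19. Pcdh17 had 26, Pcdh10 had 24, Pcdh9 had 18 or 19, Pcdh15 had 8 and Pcdh20 had 4. Over all 32851 windows the median was 7 and the quartiles were 3 and 20. The searched letters TCACACC (a T-box motif) and CTTTGAT (TCF/LEF site), on both strands, were in none of the member windows and in 3.979% and 3.729% of all windows. TATAAA, in 13.616% of all windows, was found in Pcdh8 at position 221 of the window and in Pcdh15 at position 218. CAGGTG (E2-box, both strands), in 20.212% of all windows, was found in Pcdh7 at position 283 and in Pcdh15 at position 149. No searched motif overlapped another in these windows. A match is a description of letters, and an absent one says only that they are not in this window.

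Of the 36 members, 14 passed the filter on low counts in experiment B: 10 non-clustered genes, the Pcdha and Pcdhg rows, Pcdhb17 and Pcdhb22. A gene high in only 1 medium could pass through that medium alone, so counts over these 14 are given without support drawn from them. Unique hits, fragments that fit only that gene, made up at least 90% of the estimated count in 12 of the 14, with Pcdh10 lowest at 77.0% and Pcdh11x next at 84.3%. All tests below are edgeR quasi-likelihood F tests with Benjamini-Hochberg adjustment over 16033 genes, at an adjusted p under 0.05.

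Protocadherin transcripts were higher in the F/A medium than in FBS/LIF for 12 of the 14 tested genes and lower for 0, where 24.4% of all genes tested rose and 22% fell. Pcdh7 (ENSMUSG00000029108), whose frog relative acts in ectoderm cell adhesion, differed most. It measured 94.1 and 57.1 CPM in F/A, against 0.0462 and 0.187 CPM in FBS/LIF. Every F/A library lay above every FBS/LIF library, by a log2 fold change of 9.26 (SE 0.50, adjusted p = 1e-05). Without F/A replicate 1 the log2 fold change was 8.86 (adjusted p = 4.9e-05 in edgeR), and it was 8.58 without FBS/LIF replicate 1 and 10.5 without FBS/LIF replicate 2.

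Pcdh18 (ENSMUSG00000037892), a gene of the embryonic mesenchyme and brain, measured 35.1 and 37.3 CPM in F/A and 12.8 and 11.5 CPM in L-Pro/LIF. It measured 1.71 and 1.73 CPM in FBS/LIF. The groups did not overlap, and the log2 fold change in F/A was 4.39 (SE 0.51, adjusted p = 0.00026). Both F/A libraries were close to each other, unlike those of Pcdh7.

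Pcdh8 (ENSMUSG00000036422), the paraxial protocadherin of the presomitic mesoderm, measured 8.24 and 5.75 CPM in F/A, against 0.0462 and 0.422 CPM in FBS/LIF. Its F/A libraries held 65 and 115 estimated counts, against 1 and 9 in FBS/LIF. The log2 fold change was 4.86 (SE 0.83, adjusted p = 0.0021), and 4.00 without FBS/LIF replicate 1 or 7.02 without FBS/LIF replicate 2. Pcdh11x (ENSMUSG00000034755), an X-linked gene of the nervous system, measured 23.6 and 12.3 CPM in F/A, against 0.601 and 0.141 CPM in FBS/LIF. The log2 fold change was 5.56 (SE 0.77, adjusted p = 0.0011), and between 4.85 and 6.90 when each of the 4 libraries was left out. Pcdh10 (ENSMUSG00000049100), an axon guidance gene, had 11 and 32 estimated counts in F/A, against 1 and 2 in FBS/LIF. That is a ratio per library size of 25.2 (95% counting interval 8.08 to 127) at an edgeR adjusted p of 0.0014.

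Pcdh1 (ENSMUSG00000051375), known from airway epithelium, measured 58.6 and 36.8 CPM in F/A, against 7.77 and 10.5 CPM in FBS/LIF, a log2 fold change of 2.38 (SE 0.24, adjusted p = 0.00013). Without F/A replicate 1 the value was 2.00. Pcdh17 (ENSMUSG00000035566), a synaptic gene of the basal ganglia, measured 6.97 and 5.15 CPM, against 1.25 and 0.937 CPM, and rose by a log2 fold change of 2.45 (SE 0.45, adjusted p = 0.0029). Pcdh19 (ENSMUSG00000051323), mutated in a human epilepsy, measured 17.2 and 7.90 CPM, against 0.647 and 1.12 CPM. It rose by a log2 fold change of 3.80 (SE 0.44, adjusted p = 0.00025), and by 3.14 without F/A replicate 1. Pcdh9 (ENSMUSG00000055421), another nervous system gene, had 11 and 14 estimated counts, against 3 and 3. Its adjusted p of 0.044 in edgeR was lost, at 0.167, without F/A replicate 1, and it was also lost without any of the other 3 libraries of these media. Pcdh20 (ENSMUSG00000050505) had 3 and 5 estimated counts in F/A and 0 and 1 in FBS/LIF and did not pass (adjusted p = 0.057).

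**Figure D1:**
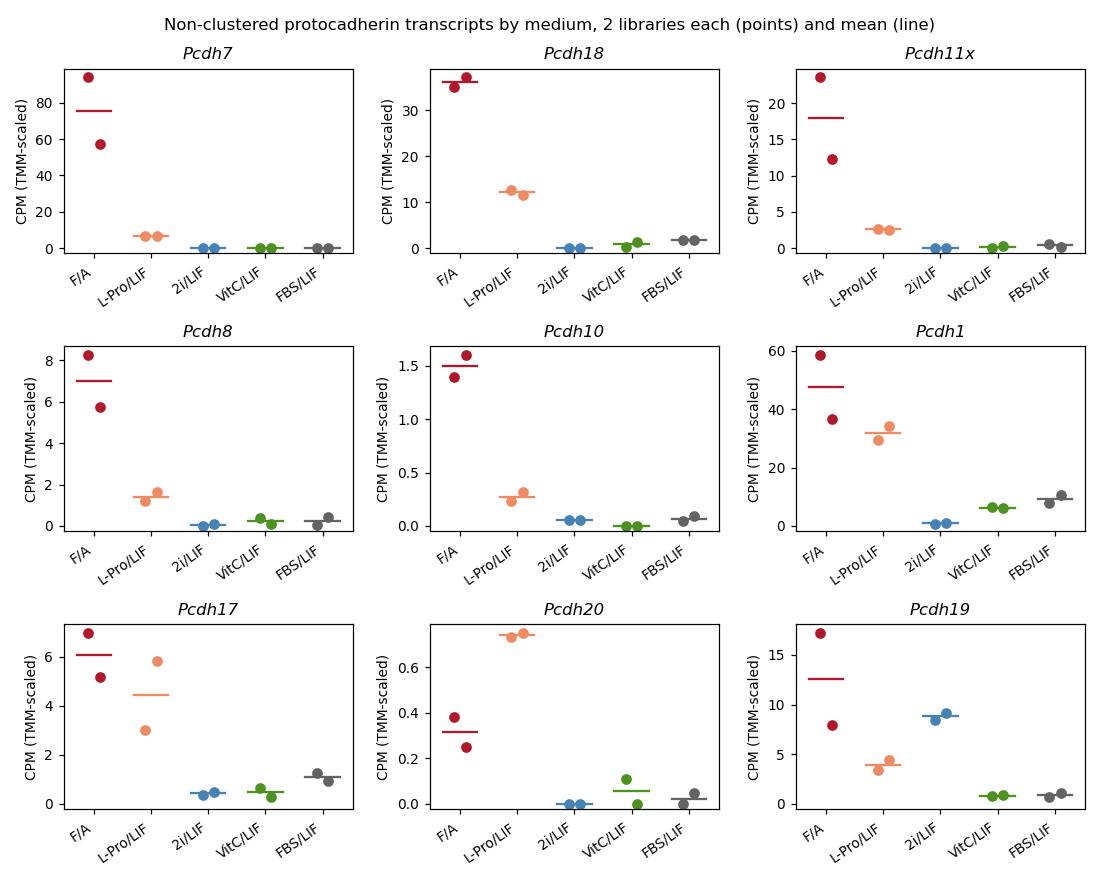
CPM (TMM-scaled, linear axis from 0) of 9 non-clustered protocadherin genes in F/A, L-Pro/LIF, 2i/LIF, VitC/LIF and FBS/LIF. Points are the 2 libraries of a medium and the line is their mean; Pcdh7 reached 94.1 and 57.1 CPM in F/A, and Pcdh19 measured 8.48 and 9.19 CPM in 2i/LIF, against 0.647 and 1.12 CPM in FBS/LIF.

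L-Pro/LIF gave 9 higher and 0 lower of the 14 tested members relative to FBS/LIF, where 13.7% of all genes tested rose and 10.3% fell. The largest change was again in Pcdh7, at 6.70 and 6.36 CPM in L-Pro/LIF, against 0.0462 and 0.187 CPM in FBS/LIF. Its log2 fold change of 5.73 (SE 0.50, adjusted p = 0.00024) held without any single library of these media, from 5.07 to 6.95. Pcdh18 rose by a log2 fold change of 2.81 (SE 0.48, adjusted p = 0.0037), and so did Pcdh1, at 29.3 and 34.4 CPM in L-Pro/LIF, against 7.77 and 10.5 CPM, by a log2 fold change of 1.81 (SE 0.24, adjusted p = 0.001).

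Pcdh17 measured 3.03 and 5.81 CPM in L-Pro/LIF, and rose by a log2 fold change of 2.01 (SE 0.44, adjusted p = 0.012). Pcdh19 measured 3.44 and 4.46 CPM, with a log2 fold change of 2.15 (adjusted p = 0.0071). Pcdh11x measured 2.66 and 2.49 CPM, with a log2 fold change of 2.77 (adjusted p = 0.031), and 4.13 without FBS/LIF replicate 1 or 2.09 without FBS/LIF replicate 2. Pcdh20, known from the olfactory system, had 16 and 19 estimated counts in L-Pro/LIF, against 0 and 1 in FBS/LIF, a ratio of 32.6 (95% counting interval 5.49 to 1330). Its edgeR adjusted p was 0.017, and 0.0546 in DESeq2. Its fitted log2 fold change of 4.65 was 3.81 without FBS/LIF replicate 1 and 6.81 without FBS/LIF replicate 2. In F/A its values, 0.380 and 0.250 CPM, lay below the L-Pro/LIF values of 0.734 and 0.751 CPM, with an adjusted p of 0.27 for that difference. Pcdh8 missed the threshold in L-Pro/LIF, at 1.19 and 1.62 CPM (log2 fold change 2.56, adjusted p = 0.053). Calls of Pcdh11x, Pcdh17, Pcdh19, Pcdh20, Pcdhb22 and the Pcdha row were lost when at least 1 of the 4 libraries was left out, and the number called was then 4 to 6.

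**Figure D2:**
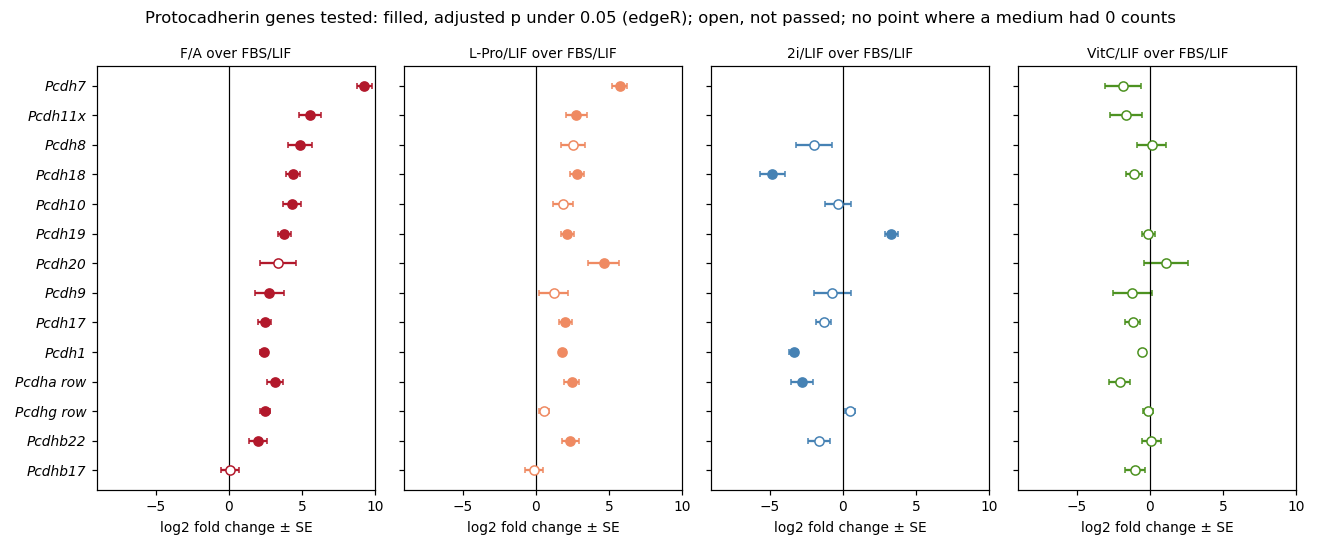
Log2 fold change with SE of the 14 tested members over FBS/LIF, for F/A, L-Pro/LIF, 2i/LIF and VitC/LIF. Filled points passed an edgeR adjusted p under 0.05 and open points did not; a member with 0 counts in both libraries of a medium has no point, and Pcdh19 is the only filled point above 0 in 2i/LIF.

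F/A exceeded L-Pro/LIF for 7 of 14 members and was lower for 0, where 11.1% of all genes tested were higher and 10.9% lower. Pcdh7 was higher by a log2 fold change of 3.53 (SE 0.33, adjusted p = 0.00074) and this call held without any single library. Pcdh8, Pcdh10, Pcdh11x, Pcdh18 and Pcdh19 passed as well, by log2 fold changes of 1.58 to 2.79. Their calls, and that of the Pcdhg row, were lost in at least 1 of the 4 leave-one-out fits, and 1 to 5 members then passed. Pcdh19 was at a log2 fold change of 0.99 without F/A replicate 1, against 1.65 with all libraries. L-Pro/LIF exceeded VitC/LIF for 10 members, with 0 lower, where 16.8% of all genes were higher and 13% lower. In that comparison Pcdh7 had 146 and 161 estimated counts, against 1 and 0 in VitC/LIF, a ratio of 235 (95% counting interval 41.8 to 9310). Pcdh1 measured 29.3 and 34.4 CPM in L-Pro/LIF, against 6.46 and 6.07 CPM in VitC/LIF (log2 fold change 2.34, adjusted p = 0.00021). Pcdh10 had 5 and 8 estimated counts, against 0 and 0 in VitC/LIF, at least 3.32-fold higher (floor of 3 counts over the group), a call lost without either VitC/LIF library or L-Pro/LIF replicate 2. Pcdh11x differed by a log2 fold change of 4.43, which was 3.44 without VitC/LIF replicate 1, and 8.63 when replicate 2 was left out instead, where the other library has 0 counts.

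In VitC/LIF, 0 of the 14 members passed the threshold in either direction by edgeR, where 0.362% of all genes tested rose and 0.312% fell, and DESeq2 also called 0. At an unadjusted p under 0.05, 2 of the 14 members passed, where 11.2% of all genes tested did. The Pcdha row was 1 of them, at 0.166 and 0.116 CPM in VitC/LIF, against 0.462 and 0.750 CPM in FBS/LIF (edgeR adjusted p = 0.3). The other was Pcdh17, at 0.662 and 0.289 CPM in VitC/LIF, against 1.25 and 0.937 CPM in FBS/LIF (edgeR adjusted p = 0.43).

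In 2i/LIF, 4 members fell and 1 rose relative to FBS/LIF, where 17.9% of all genes tested fell and 12.5% rose. Pcdh19 was the 1 that rose. It measured 8.48 and 9.19 CPM in 2i/LIF, against 0.647 and 1.12 CPM in FBS/LIF, by a log2 fold change of 3.31 (SE 0.43, adjusted p = 0.00057), and the call held without any single library. Pcdh1 measured 0.795 and 0.953 CPM, against 7.77 and 10.5 CPM, a log2 fold change of -3.37 (SE 0.30, adjusted p = 7.5e-05). Pcdh18 had 2 and 0 estimated counts in 2i/LIF, against 37 and 37, a ratio of 0.0310 (95% counting interval 0.00369 to 0.116, adjusted p = 0.0031). Its fitted log2 fold change of -4.83 became -8.04 without 2i/LIF replicate 1, which leaves 0 counts in that medium, and -3.94 without 2i/LIF replicate 2. Pcdh7 had 0 and 0 estimated counts in 2i/LIF, against 1 and 4, and did not pass (adjusted p = 0.099), nor did Pcdh11x with 0 and 0, against 13 and 3 (adjusted p = 0.053).

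The clustered genes behaved unequally. Per length, the Pcdhg row averaged 22.7 ± 13.5 FPKM in F/A, above Pcdh7 with 16.7 ± 6.21 and Pcdh1 with 13.7 ± 5.01 (SD, n = 2), by less than the spread between the libraries. In L-Pro/LIF it was below Pcdh1, at 5.29 ± 0.0464 FPKM against 8.15 ± 0.613 FPKM. It measured 128 and 55.0 CPM in F/A, 23.8 and 24.9 CPM in L-Pro/LIF, 22.5 and 23.4 CPM in 2i/LIF and 15.5 and 14.1 CPM in VitC/LIF, against 14.7 and 18.1 CPM in FBS/LIF. F/A stood apart with a log2 fold change of 2.48 (SE 0.34, adjusted p = 0.00064), which was 1.74 without F/A replicate 1, and still passed. The 2i/LIF and L-Pro/LIF values did not pass (log2 fold changes 0.48 and 0.57, adjusted p = 0.31 and 0.25). Over L-Pro/LIF the F/A value was 1.91 (adjusted p = 0.0071), and 1.17 without F/A replicate 1.

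The Pcdha row measured 8.12 and 3.25 CPM in F/A and 2.43 and 4.19 CPM in L-Pro/LIF, against 0.462 and 0.750 CPM in FBS/LIF. It rose in both, by log2 fold changes of 3.19 for F/A (adjusted p = 0.0022) and 2.44 for L-Pro/LIF (adjusted p = 0.012). The F/A value was 2.40 without F/A replicate 1, and still passed. The L-Pro/LIF call was lost when replicate 1 of FBS/LIF (value 2.14) or replicate 2 of L-Pro/LIF (1.99) was left out. In 2i/LIF it had 1 and 2 estimated counts, against 10 and 16, a ratio of 0.132 (95% counting interval 0.0256 to 0.432, adjusted p = 0.026), a call lost without either 2i/LIF library or FBS/LIF replicate 2.

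The Pcdhb genes, single-exon genes of the middle cluster, were low. Their 22 members together held 64 and 95 estimated counts in F/A, 109 and 120 in L-Pro/LIF, 10 and 14 in 2i/LIF and 18 and 23 in VitC/LIF, against 40 and 41 in FBS/LIF. As CPM of mapped fragments that was 9.22 and 5.16 in F/A, 5.04 and 4.55 in L-Pro/LIF and 0.497 and 0.740 in 2i/LIF, against 1.76 and 1.87 in FBS/LIF. Pcdhb22 held 86 of the 229 Pcdhb counts in L-Pro/LIF, and 15 of 81 in FBS/LIF, where Pcdhb17 was higher with 25. The 20 Pcdhb members that were not tested averaged under 10 estimated counts in every medium. Pcdhb9 had 0 in all 10 libraries. Pcdhb22 rose in L-Pro/LIF, with 38 and 48 estimated counts, against 11 and 4 in FBS/LIF (log2 fold change 2.36, adjusted p = 0.019), and in F/A (log2 fold change 2.01, adjusted p = 0.024), calls lost in 3 of 4 leave-one-out fits each. Without FBS/LIF replicate 1 the log2 fold change was 3.24 for L-Pro/LIF and 2.87 for the F/A medium, and without FBS/LIF replicate 2 it was 1.83 and 1.46, in the same order. Pcdhb17 had 0 and 0 in 2i/LIF, against 13 and 12, at least 7.26-fold lower (floor of 3 counts over the group, adjusted p = 0.0065). Pcdhb14 and Pcdhb21, the other Pcdhb genes with the highest FPKM, held 35 and 29 counts over all libraries and were not tested; Pcdhb21 had 9 and 9 in F/A, against 0 and 0 in FBS/LIF, and passed in a fit without the filter.

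**Figure D3:**
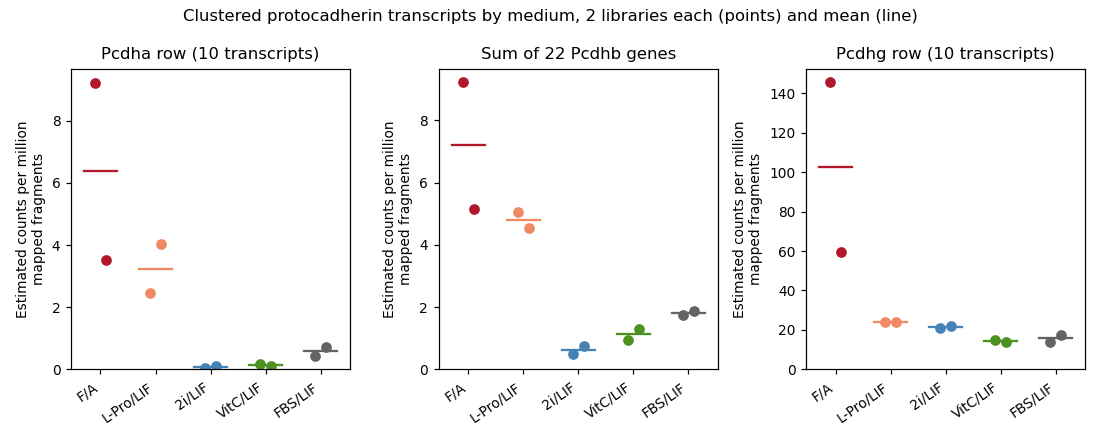
Estimated counts, as CPM of mapped fragments, of the Pcdha row, the 22 Pcdhb genes together and the Pcdhg row by medium. Points are the 2 libraries and lines their mean; F/A replicate 1 is the higher F/A point in all 3 panels, and the Pcdhg row lies at 146 and 59.7 in F/A, against 14.0 and 17.6 in FBS/LIF.

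Pcdh12, an endothelial gene, had at most 3 estimated counts in any library and was not tested, while Cdh5, the endothelial cadherin, measured at most 0.254 CPM. The low Cdh5 value does not stand for all endothelial genes. Summed CPM of 8 endothelial genes was 17.81 to 22.01 in FBS/LIF, 9.451 to 15.72 in F/A and 6.951 to 9.273 in 2i/LIF. Pcdh15, a tip-link gene of inner ear hair cells, had 2 to 8 estimated counts in the experiment B libraries. It drew only 20.5% of its estimate from unique hits.

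Experiment A measured the members in cells positive for both reporters, with 1 library per condition and so no test. Among members with at least 10 counts in the higher library, 18 of 19 were over 2-fold higher at L-Pro d5 than at Untreated t0 and 0 were lower, where 21.8% of all genes were higher and 17.9% lower. F/A d3 had 18 of 19 higher and 0 lower (21.5% and 14.4% of all genes), and F/A d5 had 15 of 15 higher and 0 lower (22.5% and 19.2%). These comparisons share the Untreated t0 library, the only one in experiment A whose labels name vitamin C. Day and vitamin C thus differed together with the treatment, and their parts cannot be told apart. At Untreated t0 the Pcdhg row held 2192 counts, Pcdh1 161 and Pcdh19 30, and every other member held fewer than 10. Those other members could reach 10 counts only through the treated library, so none of them could be counted as lower. The counts of members are therefore given without support drawn from them. The exception in L-Pro d5 and F/A d3 was the Pcdhg row, at 1.02 and 1.3 times the Untreated t0 value. The 22 Pcdhb genes together held 21 counts at Untreated t0, 171 at F/A d3 and 139 at F/A d5, and 190 at L-Pro d5. The Pcdha row held 0, 145 and 92, and 155 at L-Pro d5. Summed CPM of the streak and mesoderm genes was 44.1 at Untreated t0, 102 at F/A d3 and 1030 at F/A d5, and 139 at L-Pro d5. That of the fibroblast genes was 31.5, 21.3 and 18.3, and 54.3 at L-Pro d5. That of the neural genes was 461, 342 and 1039, and 1149 at L-Pro d5. Their part in the protocadherin values was not tested.

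Within the F/A series the members did not keep 1 order. Pcdh7 had 3 counts at t0, 73 at day 3 and 2776 at day 5, and F/A d5 over F/A d3 was 40.9-fold (95% counting interval 32.4 to 52.3). Pcdh11x had 0, 78 and 381 counts, and the Pcdhg row 2192, 2984 and 6050. Pcdh18 had 5, 631 and 1022 counts, within 2-fold between days 3 and 5. These genes were highest at day 5.

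Other members were highest at day 3. Pcdh8 had 4 counts at t0, 513 at day 3 and 263 at day 5, and Pcdh1 had 161, 2779 and 1991. Pcdh17 had 0, 194 and 64, a F/A d5 to F/A d3 ratio of 0.354 (0.263 to 0.472). Pcdh19 had 30, 300 and 165. Of 21 members with enough counts, 5 were over 2-fold higher at F/A d5 than at F/A d3 and 7 over 2-fold lower. Over all genes the shares were 10.5% and 14.9%, and these are not matched for count. Among the lower members, the counting intervals of Pcdhb4 (0.0907 to 1.32) and Pcdhb6 (0.057 to 1.25) include 1.

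F/A d5 over L-Pro d5 had 6 of 19 members over 2-fold higher and 4 lower, where 8.41% and 10.8% of all genes were. The counting intervals include 1 for Pcdhb20 (0.905 to 7.01) among the higher members. They also include 1 for Pcdh10 (0.213 to 1.08) and Pcdh9 (0.164 to 1.17) among the lower. Pcdh7 was 9.21-fold higher (8.25 to 10.3), with 2776 against 361 counts. Pcdh8 was 5.94-fold higher, Pcdh18 3.71-fold, Pcdh11x 3.02-fold and the Pcdhg row 2.77-fold. Pcdh17 went the other way, with 64 counts at F/A d5 against 477 at L-Pro d5, a ratio of 0.161 (0.122 to 0.209), and Pcdh20 had 2 against 31, a ratio of 0.0773 (0.00896 to 0.304). In experiment B, Pcdh17 measured 6.97 and 5.15 CPM in F/A and 3.03 and 5.81 CPM in L-Pro/LIF, and the difference did not pass (adjusted p = 0.45). The Pcdhg row measured 64.2 CPM at Untreated t0 in experiment A, against 14.1 to 15.5 CPM in VitC/LIF of experiment B, so levels are not compared across experiments.

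**Figure D4:**
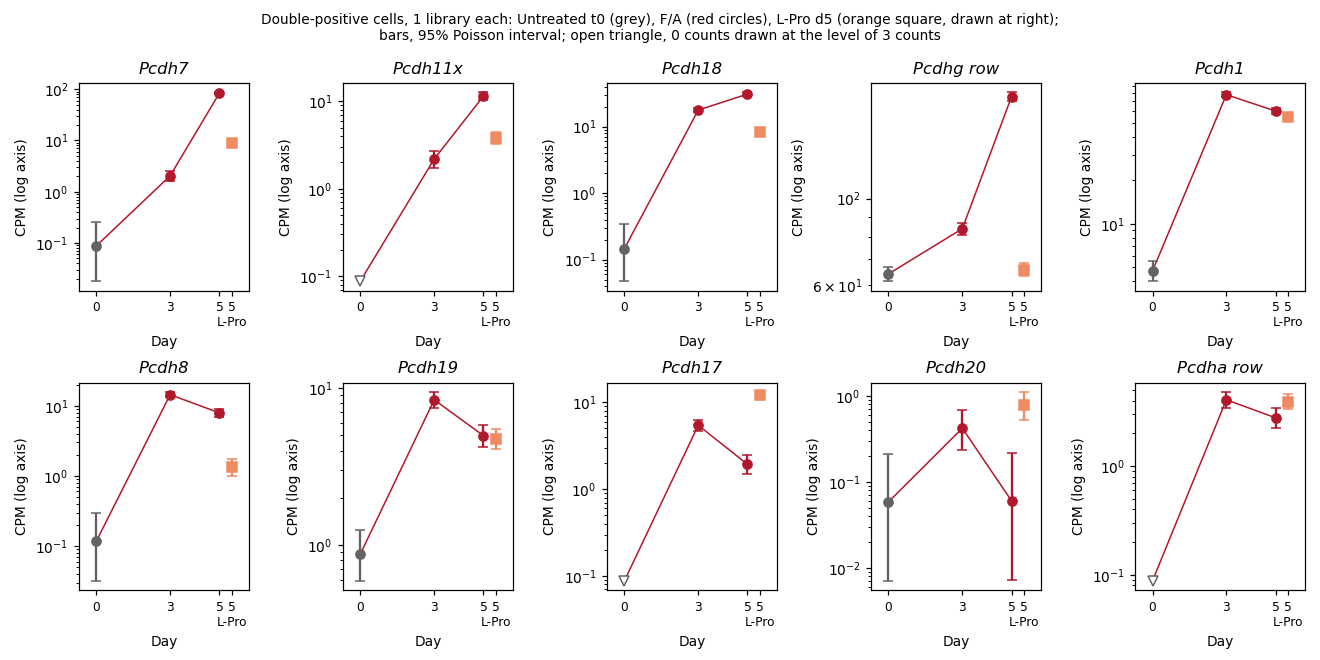
CPM (log axes) in the double-positive cells by day, 1 library each, with 95% Poisson intervals: Untreated t0, F/A d3 and F/A d5 joined by a line, and L-Pro d5 as a square at the right. A gene with 0 counts is drawn as an open triangle at 3 counts; Pcdh7 climbs to 83.7 CPM at F/A d5, while Pcdh8 peaks at 14.4 CPM at F/A d3.

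Genes around the protocadherins were read from 3 lists, whose counts are set beside the shares of all genes tested: 24.4% rose and 22% fell in F/A, 13.7% rose and 10.3% fell in L-Pro/LIF, and 12.5% rose and 17.9% fell in 2i/LIF, each over FBS/LIF. Of 24 regulators of the clustered genes, such as CTCF, cohesin and DNA methylation factors, 6 rose and 9 fell in F/A over FBS/LIF (24 tested; median log2 fold change -0.03, against 0.05 over all genes). Dnmt3l, a cofactor of de novo DNA methylation, measured 0.507 and 0.400 CPM in F/A, against 301 and 307 CPM in FBS/LIF (log2 fold change -9.43, adjusted p = 8.2e-08), and Ctcf did not pass (0.04, adjusted p = 0.83). In 2i/LIF 3 rose and 7 fell, with Dnmt3b, a de novo methyltransferase, at 137 and 126 CPM, against 633 and 631 CPM. Of 21 intracellular partners and effectors, 9 rose and 4 fell in F/A, led by Cyfip2 of the WAVE actin complex (log2 fold change 2.81, adjusted p = 3.9e-05). Of 28 other cadherin superfamily genes tested, 21 rose and 2 fell in F/A, 7 rose and 2 fell in L-Pro/LIF, and 4 rose and 10 fell in 2i/LIF. N-cadherin (Cdh2) measured 141 and 74.0 CPM in F/A, against 4.44 and 6.84 CPM in FBS/LIF (log2 fold change 4.25, adjusted p = 5e-05), and E-cadherin (Cdh1) 466 and 272 CPM, against 134 and 208 CPM (1.11, adjusted p = 0.016).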

How the data were processed

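RNA was measured in 14 libraries, 10 in experiment B and 4 in experiment A. Experiment A files are the authors' raw counts per Ensembl gene (CASAVA, TopHat2 2.0.13 and HTSeq 0.6.1p1, mm9, per the submitters' processing notes). The deposited experiment B files have mmseq-style headers and give the natural log of an FPKM value, a count of unique hits and an effective length. Estimated counts were computed by undoing the FPKM scaling and rounding, and summed to 98.7% to 99.5% of mapped fragments. How that value was fitted, and the strand setting, are not given in the sources used here. Without strand, overlapping antisense transcripts cannot be told apart. Symbols came from GENCODE vM21 (32919 of 37991 identifiers matched), and no coordinates were taken for the files' genes.

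Genes kept by filterByExpr were scaled by TMM and tested with edgeR 4.0.16 (R 4.3.3), a quasi-likelihood F test in 1 model of all 10 libraries, 2-sided, and the SE was derived from the fold change and the F statistic. CPM are TMM-scaled, except in experiment A, where they are per library total. Intervals and the floor of 3 counts cover counting error only. Experiment A has no test: a difference of over 2-fold needed at least 10 counts in the higher library. Alternatives were other size factors, DESeq2 1.42.0, no filter, unique hits, 2 media alone, a replicate block and each library left out. Named genes were the non-clustered members with a count, called clustered members and the 4 highest of each cluster by FPKM. From other lists, called genes were named, some with large changes. Others were picked to stand beside them, such as Ctcf, which was not called. Cdh1 was another, with a change below its list's median in F/A over FBS/LIF. Pcdhb4, Pcdhb6 and Pcdhb20 were named after their values were seen. Members and lists were chosen with earlier results of these data known.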

Additional observations from a re-analysis of the deposited data

Results flagged for a closer look

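In F/A d5 over L-Pro d5 of experiment A, Pcdh10 and Pcdh9 were lower, while in experiment B both F/A libraries lay above both L-Pro/LIF libraries. Pcdh10 differed by -1.0 on the log2 scale in experiment A, with 0.302 CPM at F/A d5, against 0.604 CPM at L-Pro d5. Experiment B gave 1.39 and 1.60 CPM in F/A, against 0.229 and 0.316 CPM in L-Pro/LIF. Pcdh9 differed by -1.1, with 0.211 CPM against 0.453 CPM, and experiment B gave 1.39 and 0.700 CPM in F/A, against 0.229 and 0.435 CPM. The counting intervals of the experiment A ratios, 0.213 to 1.08 for Pcdh10 and 0.164 to 1.17 for Pcdh9, include 1. The difference between the experiments was not tested.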

How the results depend on the processing

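For 43 called gene and comparison pairs, 25 kept the call in all alternatives, and 61 of 427 values lost it, 54 of these when 1 library was left out. No value reversed. Calls went from 9 to between 4 and 6 for L-Pro/LIF over FBS/LIF (5 when FBS/LIF replicate 1 was left out, 4 for L-Pro/LIF replicate 2) and when 1 library was left out were 10 to 12 for F/A over FBS/LIF (12 with all), 4 to 5 for 2i/LIF over FBS/LIF (5 with all) and 7 to 8 for L-Pro/LIF over VitC/LIF (10 with all). For F/A over L-Pro/LIF they went from 7 to between 1 and 5 (1 when L-Pro/LIF replicate 1 was left out, 2 for F/A replicate 1, 2 for L-Pro/LIF replicate 2), and to 4 with the 2 media alone. VitC/LIF over FBS/LIF stayed at 0 throughout. The cause was not tested. Each fit with a library left out repeated the filter on low counts, so the genes tested changed. Its total need not be of the same members, and in F/A over FBS/LIF some calls were lost while others were gained. In unique hits as CPM of mapped fragments, the Pcdha row in VitC/LIF was 0.0807, against 0.135 in estimated counts, and the Pcdhg row in L-Pro/LIF was 22.83, against 23.94. DESeq2 lost 3 calls and the 2-media fits 4. With the 2 media alone, 2i/LIF over FBS/LIF had 2 members higher and 3 lower, against 1 and 4 with all libraries.

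Replicate numbers are shared across media. Deviations of same-numbered libraries correlated between 0.098 and 0.518, above 0 for 10 of 10 pairs of media and above 0.1 for 9. Median effective lengths, relative to FBS/LIF replicate 1, were 39.4 to 54.1 bases in the replicate 2 libraries and -1 to 7 in the replicate 1 libraries, so the numbers go with a difference in effective length. The rule required all 10 above 0.1, and the fit without the block was kept as the one reported. With the replicate block the calls stayed at 9, 0, 5, 12, 10 and 7, with 43 of 43 kept, and the common biological coefficient of variation was 0.189, against 0.238. The filter left 20 of 22 Pcdhb genes untested. Without it Pcdhb20 and Pcdhb21 passed in F/A over FBS/LIF (edgeR adjusted p = 0.046 and 0.0069) and Pcdhb19 in L-Pro/LIF over VitC/LIF (0.04), with at most 9 counts in any library of these media; Pcdhb19 and Pcdhb20 were chosen after their values were seen.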
